A study of Mus musculus with 9 samples.

Results

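Adgre1, Lyz1, Lyz2, Ly6c2 and Cd68 are 5 genes by which monocytes and macrophages are commonly recognised, and they were chosen by symbol from the 24054 genes listed for each library. mRNA levels were measured in 9 libraries of splenic CD11b+ dendritic cells, 3 in each of 3 groups. All mice were C57BL/6 and homozygous for both alleles, Clec9a-Cre/Cre and Rosa-tdTomato/tdTomato, so that Cre driven by the Clec9a locus marks descendants of Clec9a-expressing dendritic cell progenitors with TOMATO (TOM). The groups were TOM+ cDC2 from mice at postnatal day 8 (young TOM+), TOM- DC2 from mice of the same age (young TOM-), and TOM+ cDC2 from adult mice aged 9 weeks for replicate 1 and 8 weeks for replicates 2 and 3 (adult TOM+). Young spleens were pooled before sorting. Live single cells lacking autofluorescence and positive for MHCII, CD11c and CD11b were sorted, and the sample labels list no gate on F4/80, CD64 or Ly6C. Adult TOM- cells were not analysed here, so in the comparison of young TOM- with adult TOM+ cells age and TOM status cannot be told apart.

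Adgre1 encodes F4/80, an adhesion G protein-coupled receptor of the macrophage surface. Cd68 encodes a heavily glycosylated protein of late endosomes and lysosomes related to LAMP1 and LAMP2. Lyz1 and Lyz2 are neighbouring copies of the gene for lysozyme c, which cleaves bacterial peptidoglycan. Lyz2 is the form of myeloid cells, whereas Lyz1 is best known from Paneth cells of the intestine. Ly6c2 encodes a GPI-anchored surface protein of the Ly6C antigen, which is abundant on classical monocytes and declines as they mature. Splenic cDC2 of adult mice arise mainly from committed dendritic cell progenitors, whereas the study traced most cDC2 of early life to progenitors without Clec9a expression. Splenic cDC2 share part of their transcriptome with monocytes, which is why these genes are often consulted when the origin of CD11b+ cells is in question.

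The genes were located on the GRCm38 (mm10) assembly. The lysozyme genes lie side by side on the minus strand, Lyz2 with 4 exons at chr10:117277541-117282272 and Lyz1 with 4 exons at chr10:117287795-117292868. Adgre1, listed in the files under its older symbol Emr1, has 22 exons at chr17:57358581-57483529 on the plus strand. Ly6c2 has 4 exons at chr15:75108161-75112066 and Cd68 6 exons at chr11:69664213-69666170, both on the minus strand. None of the 5 loci overlaps another annotated gene. Since the libraries keep no strand, this bears on how far their reads can be told from those of other genes.

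How well each gene could be measured depended on its copies. Of all stretches of 50 bases, the read length, in the spliced transcript, Adgre1 shared 0 of 3189 and Cd68 0 of 1181 with any other annotated gene. Lyz1 shared 195 of 1214 (16.1%) with Lyz2 and with no other gene, and Ly6c2 shared 255 of 773 (33.0%), nearly all with Ly6c1. The Lyz1 and Lyz2 coding sequences have 444 bases each and differ at 22 of them, which changes 12 of 148 residues. Most of these differences fall near the start of the coding sequence. Coding bases 7 to 156, counted from the A of the start codon and taken from the GENCODE transcripts, are shown because reads from there can be assigned to 1 gene, and capitals mark the 15 positions at which the copies differ.
Lyz1: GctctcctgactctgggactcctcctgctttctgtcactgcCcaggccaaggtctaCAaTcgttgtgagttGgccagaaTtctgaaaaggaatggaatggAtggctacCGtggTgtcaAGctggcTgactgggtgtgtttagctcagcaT
Lyz2: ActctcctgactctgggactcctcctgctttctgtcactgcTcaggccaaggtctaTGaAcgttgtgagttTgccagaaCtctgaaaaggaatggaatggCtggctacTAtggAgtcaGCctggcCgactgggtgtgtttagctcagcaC
Reads from coding bases 276 to 393 cannot be assigned to either copy, since this run of 118 bases is the same in both.
Lyz1 and Lyz2: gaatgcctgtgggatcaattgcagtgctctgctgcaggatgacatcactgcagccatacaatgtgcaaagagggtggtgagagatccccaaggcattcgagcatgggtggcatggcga

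For each gene and library, both deposited kinds of count therefore have to be read side by side. STAR counts hold only reads with a single best position, whereas RSEM expected counts divide reads that fit several transcripts, and RSEM also gave TPM, the abundance of a transcript relative to the library total. TPM are scaled to transcript length and are used here for levels and for comparing genes. Reads counted on genes by STAR ranged from 12783252 to 22809401 per library, and 26.1% to 31.6% of reads were not on a gene. Among dendritic cell genes, Flt3, Zbtb46, Itgax, Itgam and Sirpa averaged 77.9 TPM or more in each group. Itgax and Itgam encode CD11c and CD11b, on which the cells were sorted, so their levels cannot test the sort label. Other genes of the dendritic list were lower, such as Mgl2 at 5.32 TPM on average in adult cells. Young TOM- replicate 1 stood apart by transcripts of neutrophils and erythroid cells. The summed TPM of 15 neutrophil genes, 14 of them in the files, was 48.9 in this library and 5.82 to 11.2 in the others, and that of 10 erythroid genes was 1176 against 1.39 to 120.5. Member calls without this library were the same as with it.

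Lyz2, Cd68 and Adgre1 were strongly expressed in every library, Lyz1 was intermediate and Ly6c2 was close to the limit of detection. Lyz2 ranked 25th to 76th among all genes by TPM, and Cd68 ranked 195th to 250th. Adgre1 ranked 698th to 1021st. Within each of the 9 libraries, Lyz2 exceeded Cd68 by 2.34 to 4.51 times and Cd68 exceeded Adgre1 by 2.64 to 3.87 times on the TPM scale. Adgre1 was above Lyz1 in 6 of 9 libraries, all 6 of young mice, and below it in the 3 of adult mice. On STAR counts per length of transcript, which leave out shared reads, Adgre1 was above Lyz1 in all 9, by 1.33 to 1.99 times in adult libraries and by 11.7 to 161.2 times in young ones, so their order in adult cells depended on the counting. In bulk samples such as these, fewer cells of a type and less RNA per cell cannot be told apart.

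**Figure D1:**
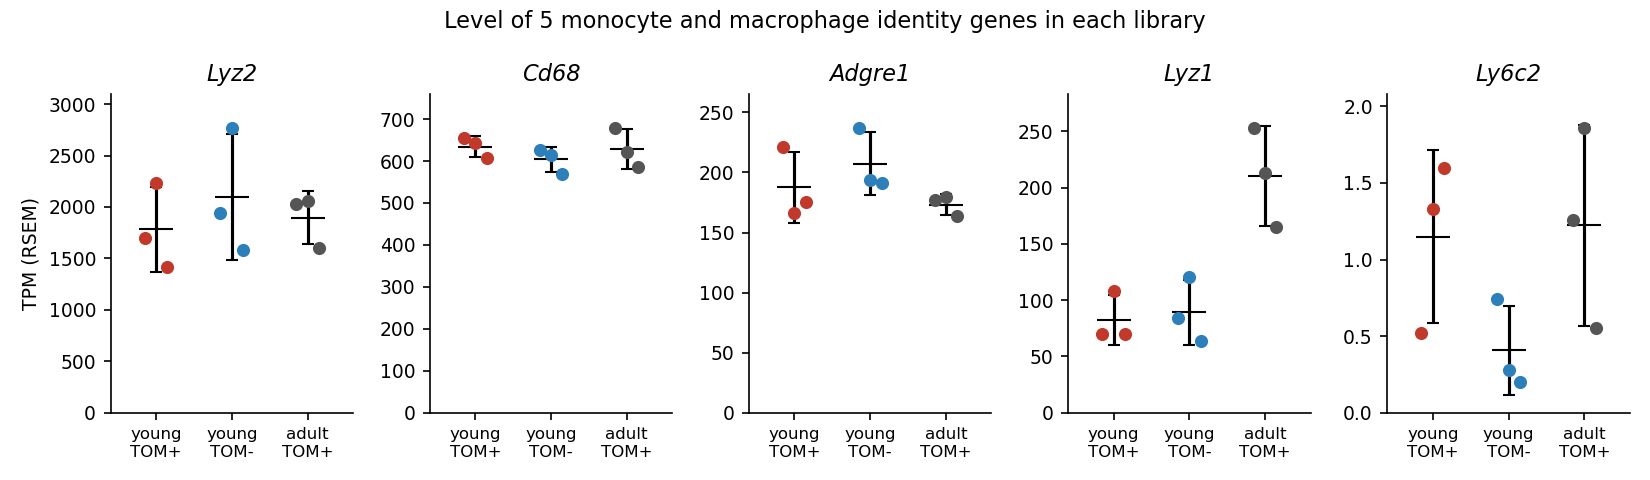
TPM of each of the 5 genes in each library, with a separate linear axis from 0 for each gene. Points are libraries in the order of replicates 1 to 3, horizontal bars are means and whiskers are SD (n = 3). Lyz1 is the gene whose adult libraries, at 164.6 to 253.2 TPM, all lie above the young ones, at 63.5 to 120.5 TPM.

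Lyz1 was the only one of the 5 genes called in any comparison by edgeR's quasi-likelihood test (log2 fold change beyond 1 and Benjamini-Hochberg adjusted p under 0.05, on STAR counts). STAR counted 80, 184 and 149 Lyz1 reads in young TOM+ replicates 1 to 3. In young TOM- cells the counts were 38, 92 and 21. Adult TOM+ libraries, although of similar or lower depth, had 1270, 1063 and 1014. Each adult library thus held several times as many Lyz1 reads as any young library. Lyz1 was lower in young than in adult TOM+ cDC2 with a log2 fold change of -3.59 (SE 0.424, adjusted p = 3.7e-05), or 12.1-fold. For young TOM- against adult TOM+ cells it was -4.96 (SE 0.476, adjusted p = 1.1e-05), or 31.2-fold, and without young TOM- replicate 2 it was -5.84. These comparisons share the adult libraries. Of all 14452 genes tested, 12.8% were called between young and adult TOM+ cells and 11.3% between young TOM- and adult TOM+ cells, against 1 of the 5 genes in each.

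The size of the Lyz1 difference depended on the counting. RSEM assigned 938, 1312 and 1020 expected counts to Lyz1 in young TOM+ cells. In young TOM- cells it assigned 856, 1395 and 1063. In adult cells the values were 2294, 1922 and 1923, still above every young library. The same edgeR test on rounded RSEM counts gave log2 fold changes of -1.51 (SE 0.256, adjusted p = 0.00061) for young against adult TOM+ cells and -1.42 (SE 0.255, adjusted p = 0.0011) for young TOM- against adult TOM+ cells. These are 2.85-fold and 2.68-fold. Direction and call were therefore shared by both kinds of count, but the fold was not. TPM of Lyz1 were 82.3 ± 21.99 in young TOM+, 89.4 ± 28.9 in young TOM- and 210.3 ± 44.4 in adult TOM+ cells (SD, n = 3).

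RSEM placed 818 to 1303 more reads on Lyz1 than STAR did in young libraries and 859 to 1024 more in adult libraries. This addition was similar in all libraries, whereas the STAR counts to which it was added were not. RSEM counts were 6.85 to 50.6 times the STAR counts for Lyz1 in young libraries, but 1.81 to 1.90 times in adult libraries. For Lyz2 the ratio was 1.19 to 1.21 in all 9. Relative to the STAR counts of both genes together, the Lyz1 addition amounted to 5.44% to 6.01% in young and 6.18% to 7.31% in adult libraries. The Lyz2 transcript used for RSEM had a length of 1057 bases, 259 fewer than the 1316 of the GENCODE transcript. The part of this shorter transcript in the assignment of shared reads was not tested.

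**Figure D2:**
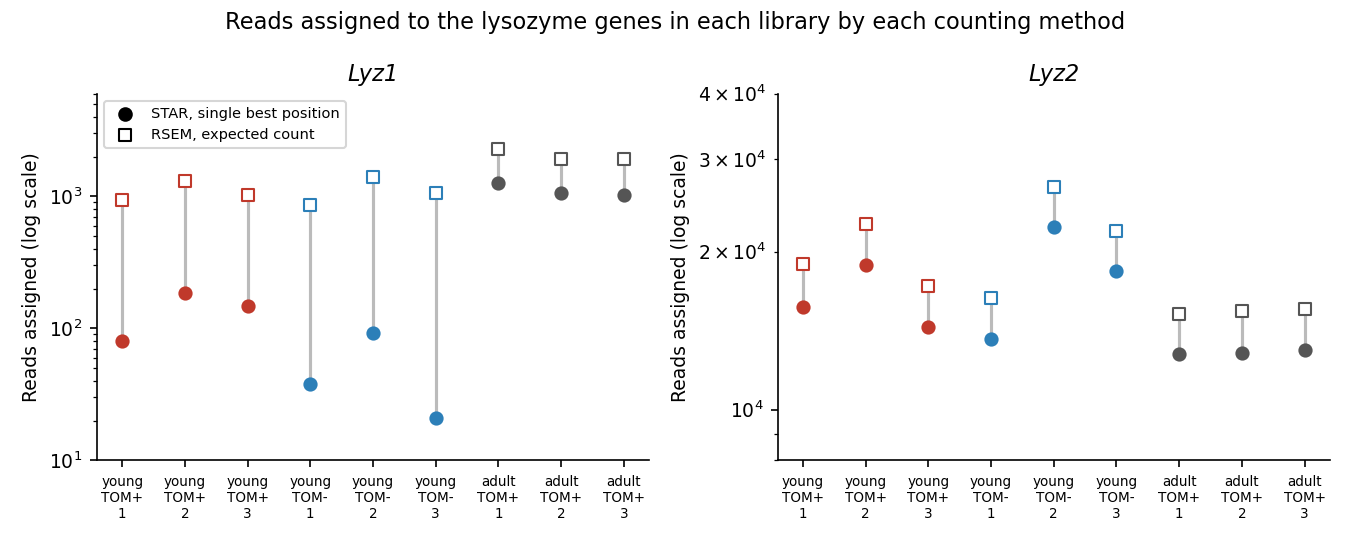
Reads assigned to Lyz1 (left) and Lyz2 (right) in each library, on log axes with different ranges. Filled circles are STAR counts and open squares are RSEM expected counts, joined by a line per library. The gap between methods is wide for Lyz1 in the 6 young libraries (21 to 184 by STAR, 856 to 1395 by RSEM), narrower in adult libraries and about the same everywhere for Lyz2.

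Expressed as a share of the reads of both lysozyme genes, Lyz1 made up 0.507%, 0.966% and 1.03% of STAR counts in young TOM+ libraries. Its share was 0.278%, 0.412% and 0.114% in young TOM- libraries. In adult TOM+ libraries it was 9.07%, 7.65% and 7.25%. The 3 groups did not overlap, and exact 95% binomial (Clopper-Pearson) intervals ran from 0.0706% to 1.21% over the young libraries and from 6.83% to 9.56% over the adult libraries, counting error only. The mean share of young relative to adult TOM+ cells differed by -7.16 percentage points, that of young TOM- relative to adult TOM+ cells by -7.72 points and that of young TOM+ relative to young TOM- cells by 0.566 points. An exact two-sided permutation test gave p = 0.1 for each, the smallest that 3 libraries against 3 allow (adjusted p = 0.2 over 18 tests of both gene pairs and 3 measures). By RSEM expected counts the mean share was 5.27% in young TOM+, 4.87% in young TOM- and 11.7% in adult TOM+ cells. The adult libraries again lay above the young libraries, but the young groups overlapped (exact permutation p = 0.3, adjusted p = 0.39).

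Between the young groups none of the 5 genes was called by edgeR, DESeq2 or limma, with an unadjusted p under 0.05 for 2, 1 and 0 of them, beside 1.18% of all genes called by edgeR. Lyz1 did not pass the test (log2 fold change of TOM+ relative to TOM- 1.37, SE 0.504, adjusted p = 0.335). Depth-corrected STAR counts (CPM after TMM scaling) were 7.47 ± 3.50 and 3.02 ± 2.46 CPM (SD, n = 3), with overlap. With the replicate number as a block, which pairs the young libraries, the log2 fold change was 1.45 and passed (SE 0.349, adjusted p = 0.047). By RSEM counts the difference was -0.09 (adjusted p = 0.98). STAR and RSEM thus gave opposite signs for the young groups.

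Lyz2 was the most abundant of the 5 genes in every group, and its groups overlapped. TPM were 1696, 2232 and 1420 in young TOM+ replicates 1 to 3. Young TOM- libraries had 1939, 2770 and 1578. Adult libraries had 2027, 2062 and 1604. Replicate 2 was the highest and replicate 3 the lowest in both young groups, and the differences between group means were smaller than the spread within groups. Within the 3 pairs of young libraries with the same number, Lyz2 was higher in TOM- cells each time, and with the replicate block the log2 fold change of young TOM+ relative to young TOM- cells was -0.20 (SE 0.101, edgeR adjusted p = 0.462). The log2 fold changes were -0.21 (SE 0.216, adjusted p = 0.89) between young TOM+ and young TOM- cells, -0.22 (SE 0.216, adjusted p = 0.449) between young and adult TOM+ cells and -0.01 (SE 0.216, adjusted p = 0.983) between young TOM- and adult TOM+ cells. The sign of the last was not stable across settings. Lyz2 is also a neutrophil transcript, and the part of the neutrophil transcripts of young TOM- replicate 1 in its level was not tested.

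Cd68 varied least, from 570.2 to 679.4 TPM, or 1.19-fold over all libraries. Its TPM were 654, 642.5 and 606 in young TOM+, 627.3, 613.8 and 570.2 in young TOM-, and 679.4, 621 and 585.2 in adult TOM+ libraries. The ranges of the groups overlapped. The log2 fold change was 0.10 (SE 0.088, adjusted p = 0.857) between the young groups and -0.12 (SE 0.0881, adjusted p = 0.292) between young and adult TOM+ cells. Young TOM- cells were the nearest to a difference from adult TOM+ cells, at -0.22 (SE 0.0881, adjusted p = 0.068). This value passed the adjusted p threshold with DESeq2 (-0.25, adjusted p = 0.0195) and with RSEM counts (-0.24, adjusted p = 0.0429), far short of the fold threshold.

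Adgre1 was at 221.2, 166.2 and 175.5 TPM in young TOM+ libraries and at 237.2, 193.6 and 191.1 TPM in young TOM- libraries. In adult TOM+ libraries it was at 176.7, 179.4 and 163.6 TPM. Replicate 1 was the highest in both young groups, and for each shared number the young TOM- library exceeded the young TOM+ one (3 of 3). On TPM the young TOM- libraries did not overlap with the adult ones (limma on log2(TPM + 1), log2 fold change 0.25, adjusted p = 0.103), while on depth-corrected STAR counts all groups overlapped. The log2 fold change was -0.11 (SE 0.101, adjusted p = 0.866) between the young groups, -0.01 (SE 0.101, adjusted p = 0.923) for young against adult TOM+ cells and 0.10 (SE 0.101, adjusted p = 0.49) for young TOM- against adult TOM+ cells. A p that misses the threshold does not show that the groups have equal levels, but the standard errors for Adgre1 and Cd68 were about 0.1 on the log2 scale.

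Ly6c2 was represented by 3, 8 and 10 STAR reads in young TOM+ libraries. Young TOM- libraries had 1, 1 and 2. Adult TOM+ libraries had 3, 4 and 1. All libraries lay at 0.2 to 1.86 TPM, so that 45.8% to 57.2% of genes had lower values. Pooled over libraries, 21 of 54560963 reads in young TOM+ and 4 of 52346950 in young TOM- cells came to a ratio of 5.04 (exact 95% interval 1.70 to 20.2, counting error only). In depth-corrected counts these groups did not overlap, but the edgeR test did not pass (adjusted p = 0.318), and 1.18% of all genes were called in this comparison. The ratio was 2.04 (0.868 to 5.32) for young over adult TOM+ cells and 0.405 (0.0892 to 1.51) for young TOM- over adult TOM+ cells, with adjusted p of 0.434 and 0.223 by edgeR. By RSEM the ranges overlapped between all groups, with TPM of 0.52, 1.33 and 1.60 in young TOM+, 0.74, 0.28 and 0.20 in young TOM- and 1.26, 1.86 and 0.55 in adult libraries. The log2 fold change on RSEM counts was 1.51 between the young groups, -0.22 for young against adult TOM+ cells and -1.73 for young TOM- against adult TOM+ cells, none of which passed (edgeR adjusted p = 0.577, 0.825 and 0.0966). Its copy Ly6c1, whose coding sequence is 97.7% identical, had 14, 4 and 1 reads in young TOM+, 2, 0 and 0 in young TOM- and 0 in each adult library. The share of Ly6c2 in the reads of both copies was 17.6%, 66.7% and 90.9% in young TOM+ libraries, which rests on 11 to 17 reads a library. The other groups had 1 to 4 reads a library, with a share of 100% in each adult library. Exact two-sided permutation tests of this share gave p = 0.1 to 1, and 3 libraries against 3 cannot go below 0.1.

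**Figure D3:**
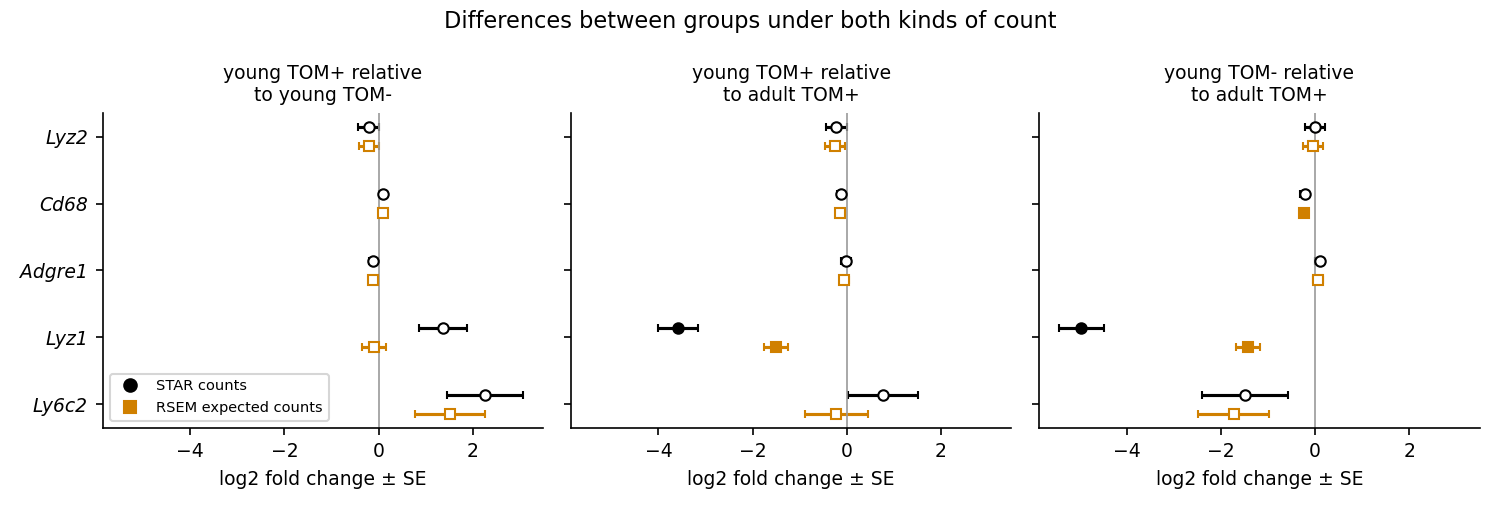
Log2 fold change ± SE of each gene in the 3 comparisons, from edgeR on STAR counts (black circles) and on RSEM expected counts (orange squares). Filled symbols have an adjusted p under 0.05. Lyz1 has filled symbols in both comparisons with adults, at -3.59 and -4.96 by STAR and -1.51 and -1.42 by RSEM, and the wide bars of Ly6c2 rest on 1 to 10 reads a library.

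The relatives of the 5 genes did not follow a single pattern. Of 10 lysozyme family genes, Lyz1 and Lyz2 were the only ones tested, and the other 8 stayed below 1 TPM in every library. Among LAMP proteins, Lamp1, the major lysosomal membrane protein, was at 451.5 TPM in young TOM+, 520.8 in young TOM- and 269.6 in adult cells. It was higher in young cells by 0.61 and 0.79 on the log2 scale (edgeR adjusted p under the threshold in both), while Lamp2 was lower in young TOM+ than in adult cells by 0.27. Cd68 passed the main test in neither of these comparisons. Among adhesion receptors, Adgre4 was higher in young TOM+ and young TOM- cells (log2 fold change 0.60 and 0.66), and Adgre5, the leukocyte antigen CD97, was lower (-0.55 and -0.51). Adgrg5 (-1.33 and -1.46) and Adgrl1 (1.16 and 1.06) were called against adult cells in both, whereas Adgrg1, Adgrg3, Adgrl2 and Adgrl4 were below 1 TPM. Between the young groups edgeR called 0 of the 9 adhesion receptor genes, beside 1.18% of all genes, and 0 had an unadjusted p under 0.05.

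In the Ly6 cluster on chromosome 15, Ly6e was by far the most abundant, at 769.9, 792.6 and 989.7 TPM on average in young TOM+, young TOM- and adult cells. It was lower in young TOM+ and young TOM- than in adult cells by 0.49 and 0.48 on the log2 scale (edgeR adjusted p 0.0348 and 0.0416). Adult replicates 1 to 3 were at 996.1, 1269 and 704 TPM, the last of which lay below every young library (723.3 to 825.5 TPM). Ly6a (Sca-1) at 9.79 to 17.4 TPM and Ly6i at 4.79 to 7.10 TPM, as group means, passed no test. Ly6c1 was called for young against adult TOM+ cells (edgeR adjusted p = 0.0451) and Ly6m for young TOM- against adult TOM+ cells (edgeR adjusted p = 0.0411), both at mean levels of 1.09 TPM or less in each group. The Ly6c1 difference did not pass on RSEM counts (edgeR adjusted p = 0.0972) or with the replicate block (edgeR adjusted p = 0.187). Of its 19 STAR reads in young TOM+ cells, 14 were in replicate 1. Ly6d, Gpihbp1 and Lynx1 passed no test and had group means of 1.51 TPM or less.

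Other genes used to recognise monocytes were unevenly present. Of 38 monocyte genes, which include Lyz1, Lyz2 and Ly6c2, F13a1, Vcan and Hp were below 1 TPM in every library. Ccr2, the receptor that guides monocytes out of the marrow, was at 37.6, 23.1 and 17.0 TPM and Csf1r, the M-CSF receptor, at 241.1, 205.6 and 168.9 TPM on average in young TOM+, young TOM- and adult cells. Between the young groups none of the 38 was called by edgeR, beside 1.18% of all genes, or 1 with the replicate block (Lyz1). DESeq2 and limma also called 0. In edgeR 14 of the 38 had an unadjusted p under 0.05, beside 1355 of all 14452 genes. The median log2 fold change of the 38 was -0.04 against 0.00 for all genes. Between young and adult TOM+ cells 8 of 38 (21.1%) were called, 1 higher and 7 lower in young cells, with a median of -0.07 against 0.05, beside 12.8% of all genes called. Between young TOM- and adult TOM+ cells 6 of 38 (15.8%) were called, 2 higher and 4 lower, with a median of 0.02 against 0.07, beside 11.3% of all genes. Besides Lyz1, the largest falls in both were those of Ace (-3.46 and -2.79), the angiotensin-converting enzyme found on Ly6C-low monocytes, and of Eno3 (-2.04 and -1.64). Ccr2 was the gene that rose in young TOM+ cells (1.01), and Fn1 (3.11), at mean levels of 0.97 TPM or less, rose in young TOM- cells.

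Most macrophage genes had higher values in young TOM- than in young TOM+ cells. Of 42 such genes, which include Adgre1 and Cd68 and share Csf1r, Cd14 and Fcgr1, among others, with the monocyte list, 40 were tested. Between young TOM+ and young TOM- cells 33 of 40 had a lower value in TOM+ cells and the median was -0.53 against 0.00 for all genes. Of the 40, 2 (5%) were called, Lpl (-1.21) and Ctsl (-1.02), beside 1.18% of all genes. Neither was called without young TOM+ replicate 3 or without young TOM- replicate 3, and 1 gene was called without young TOM- replicate 1 or 2. RSEM counts gave 1 call and limma 0 at each setting. Against adult cells, 9 of 40 (22.5%) were called in young TOM+ cells, 7 higher and 2 lower (median 0.04 against 0.05), beside 12.8% of all genes. In young TOM- cells 12 of 40 (30.0%) were called, 11 higher and 1 lower (median 0.76 against 0.07), beside 11.3% of all genes. The largest rises were Cd163 (2.18), Maf (1.86) and Timd4 (1.68) in young TOM+ cells and Gas6 (3.06), Maf (2.84) and Slc40a1 (2.31), the iron exporter ferroportin, in young TOM- cells. Apoe fell in both (-2.10 and -1.43), and Gpnmb fell in young TOM+ cells (-1.70) at group means of 0.433 TPM or less. Gas6 was also low, at 1.08, 0.21 and 0.20 TPM in young TOM- replicates 1 to 3 and 0.08 TPM or less in adult libraries. Maf had group means of 1.16 TPM or less. Adgre1 and Cd68 were not among the genes called in any of these comparisons.

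**Figure D4:**
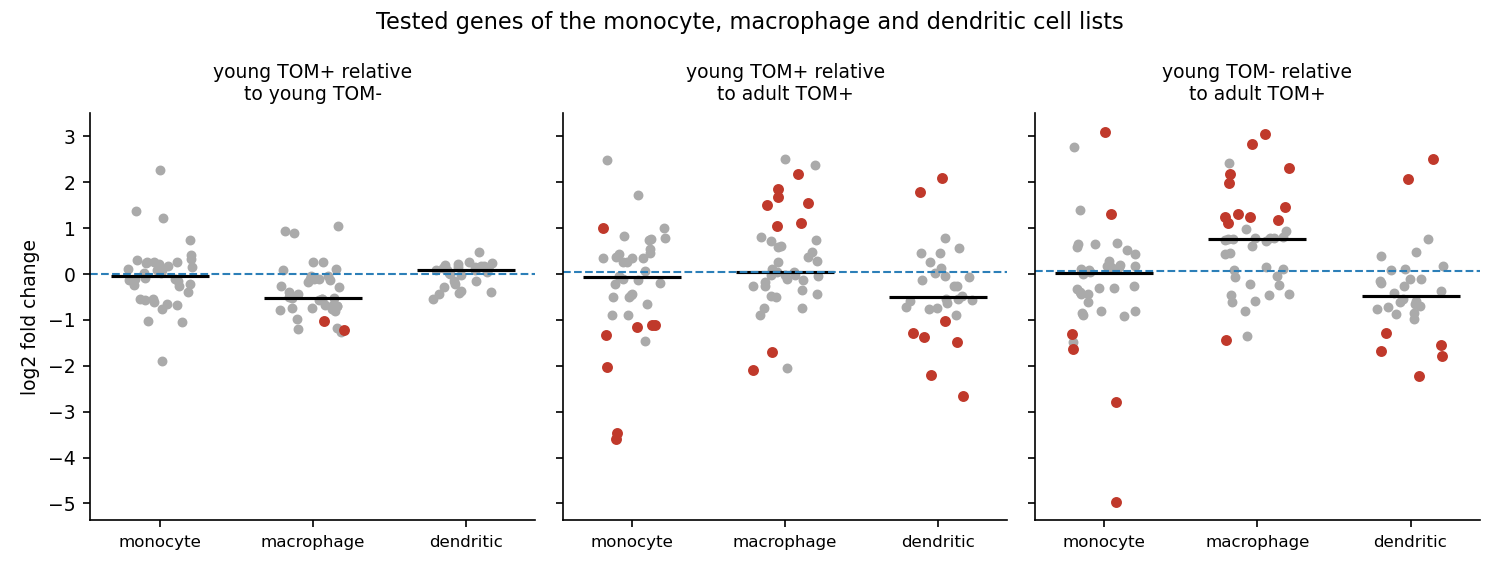
Log2 fold change of each tested gene of the monocyte (38), macrophage (40) and dendritic cell (30) lists in the 3 comparisons, from edgeR on STAR counts. Red points are called genes, black bars are list medians and the dashed line is the median of all 14452 tested genes. The macrophage list has its lowest median (-0.53) for young TOM+ relative to young TOM- cells and its highest (0.76) for young TOM- relative to adult cells.

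Defining genes of whole cell types moved beside these values. The 11 defining genes of splenic red pulp macrophages, which express F4/80 strongly, summed to 186.2 to 231.9 TPM in young TOM+, 298 to 360.1 in young TOM- and 102.8 to 156.3 in adult libraries. The most abundant, as means in young TOM- cells, were C1qb (73.3 TPM), Hmox1 (72.8), Spic (65.3) and C1qa (40.8). Among the others Cd5l was below 1 TPM in every library, and Fcgr1 (CD64) and Mertk had group means of at most 0.867 and 1.98 TPM. Cd163 ran against the sum between the young groups, at 4.34 TPM in TOM+ and 2.29 TPM in TOM- cells (edgeR adjusted p = 0.026). Relative to adult cells, 8 of the 11 were higher and 3 lower in young TOM+ cells, and 9 higher and 2 lower in young TOM- cells. Vcam1 ran against the sum here, at 8.86 TPM in young TOM+, 12.9 in young TOM- and 13.6 in adult cells. Its log2 fold change for young against adult TOM+ cells was -0.74 (edgeR adjusted p = 0.00073). The sum was highest in young TOM- cells, in which Adgre1 also had its highest mean, 207.3 TPM, although Adgre1 did not pass the test. The 10 defining genes of classical monocytes summed to 57.4 to 88.3, 52.5 to 77.5 and 55.9 to 87.4 TPM, overlapping in all groups. Lists of other lymphoid and dendritic cells also moved with the groups. ILC3 genes summed to 163.2 to 201 TPM in young TOM+, 247.5 to 328 in young TOM- and 335.4 to 410.8 in adult libraries. T and NK cell genes summed to 28.2 to 29.0, 46.8 to 49.5 and 22.6 to 32.9 TPM, and B cell genes to 107.2 to 158.7, 130 to 195.4 and 190.2 to 197.5 TPM. Between the young groups 4 of 8 ILC3, 3 of 9 B cell and 1 of 11 T and NK cell genes were called, all lower in TOM+ cells. Of all genes, edgeR called 1.18% in this comparison. The sums were 112.2 to 118.1, 121 to 129 and 135.8 to 175.8 TPM for pDC genes and 383.4 to 428.1, 372.8 to 410.5 and 334 to 372.3 TPM for cDC1 genes. The part of any such cells in the levels of the 5 genes was not tested.

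Of 30 genes of the dendritic cells themselves, none was called between the young groups by edgeR, DESeq2 or limma, beside 1.18% of all genes in edgeR. The unadjusted p in edgeR was under 0.05 for 6 of the 30, beside 1355 of all 14452 genes. Against adult cells 8 (26.7%, beside 12.8% of all genes) were called for young TOM+ cells, 2 higher and 6 lower, with a median of -0.51 against 0.05. For young TOM- cells 7 (23.3%, beside 11.3%) were called, 2 higher and 5 lower, with a median of -0.48 against 0.07. Mgl2 (2.09 and 2.50) and Clec10a (1.80 and 2.07), lectins that are close copies, rose, and Ccr7 (-2.66 and -2.23) and Esam (-2.21 and -1.67) fell in both. Clec4a4 (-1.49) was the third largest fall in young TOM+ and Cd209a (-1.78) the second largest in young TOM- cells.

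Genes whose TPM across the 9 libraries were most like those of each of the 5 were sought among 8988 tested genes of at least 5 TPM on average. These correlations of log2(TPM + 1) are descriptions over libraries that share groups and normalization. Lyz1 was most similar to Rab5b (r = 0.96), Fcer1g (r = 0.96) and Man1b1 (r = 0.96), all of which had their highest mean in adult cells. Lyz2 was most similar to Tial1 (r = 0.90), the lectin receptor gene Clec4a1 (r = 0.88) and Bri3 (r = 0.79). For Adgre1 the nearest genes were Vps8 (r = 0.97), Nedd4 (r = 0.95) and Lrp1 (r = 0.95), and for Cd68 they were Tmed10 (r = 0.93), Sdc3 (r = 0.92) and Mid1ip1 (r = 0.91). Ly6c2 was nearest to Ly6i (r = 0.91), Tubd1 (r = 0.86) and Ube2g2 (r = 0.82), from values of few reads.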

How the data were processed

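mRNA of sorted cells was amplified with SMART-seq v4 and sequenced as single-end reads, which the authors aligned to mm10. The authors deposited STAR counts per gene (unstranded column used, no normalization), RSEM expected counts (counts estimated for reads that fit several transcripts, rounded here for testing) and TPM, which RSEM scales to transcript length and library total. The FPKM that the authors deposited, also computed by RSEM, were not used. STAR's lines for reads not on a gene were left out of library sizes. Groups came from cell type and age in the sample labels. Older symbols were matched through RefSeq synonyms.

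Counts of all 9 libraries were fitted with edgeR 4.0.16 (TMM, quasi-likelihood test, R 4.3.3), dropping genes whose average count was under 1, as the study did, which left 14452. Genes were called at a log2 fold change beyond 1 and a Benjamini-Hochberg adjusted p under 0.05. In simulated counts for the comparison of the young groups, well-counted genes were changed by more than the fold threshold, and edgeR recovered most of them. The simulation gave every gene the same spread. It does not cover genes of few reads, such as Ly6c2, or changes near the fold threshold. DESeq2 1.42.0, limma 3.58.1 on log2(TPM + 1) and log2(TPM + 0.1), other filters and normalizations, RSEM counts and fits without each library were alternatives. Shares were compared by exact permutation tests (scipy 1.17.1). Stretches of 50 bases were counted in GENCODE transcripts of GRCm38.

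Labels give no replicate numbers. The number in the deposited names (81, 91 or 92) was used to pair the young libraries. Their deviations from group means correlated at 0.500, 0.179 and 0.330 within numbers and at -0.409 to 0.185 between numbers. For number 91 the value within the number (0.179) was slightly below the highest between numbers (0.185), so this pairing is less certain. Adult libraries did not correlate with young ones of the same number (-0.00178 to 0.0412). What the number marks is not given in the sources used here. The study describes the libraries as biological replicates, those of young mice from pooled spleens, and p-values measure only the spread between these samples. No libraries of a group were copies (chi-square per gene at least 9.18). Depth limits Ly6c2, and intervals cover counting error only.

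Named genes were the 5 members, the 3 genes most like each by Pearson correlation, the 3 largest rises and falls among called genes of the monocyte, macrophage and dendritic lists, and tested genes of the 4 families. A gene that this rule would name is not reported here. Members and lists were chosen with earlier results of these data known. Lists of B cell, T and NK cell, pDC, cDC1 and ILC3 genes were also summed.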

Additional observations from a re-analysis of the deposited data

How the results depend on the processing

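Lyz1 stayed called against adult cells under every alternative run, but the size of the difference depended on the counting, as given above, and the cause was not tested. Of 231 member values under alternatives, 197 kept direction and side of the threshold. With limma on TPM the median log2 fold change of all genes moved to 0.16 and 0.18 (pseudocounts 1 and 0.1) for young against adult TOM+ cells and to 0.18 and 0.20 for young TOM- against adult TOM+ cells, so values on that scale are to be read against these medians.

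Some values changed sign, none of which passed the threshold in the edgeR fit without a block. Lyz1 between the young groups, 1.37 in that fit, was -0.087 by RSEM counts and -0.10 by limma at each setting. Adgre1 for young against adult TOM+ cells was 0.105 by limma, Cd68 0.0148, and Lyz2 for young TOM- against adult TOM+ cells 0.113. Ly6c2 for young against adult TOM+ cells, 0.78 in that fit, was -0.22 by RSEM counts and -0.041 by limma without a filter. It could not be fitted under the stricter filters. Cd68 for young TOM- against adult TOM+ cells passed with DESeq2 (-0.247), RLE normalization (-0.247), filterByExpr (-0.248) and RSEM counts (-0.240).

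The replicate block moved Lyz1 between the young groups past the threshold (1.45), which made 1 of 5 members called there. Adult libraries share only a number with young ones. There the block gave -0.157 for Adgre1, -0.323 for Lyz2 and -0.176 for Cd68 in young against adult TOM+ cells, all past the adjusted p threshold, and -0.276 for Cd68 (passing) and -0.044 for Adgre1 in young TOM- against adult TOM+ cells. It changed no other member call.

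Called genes numbered 170 between the young groups (90 and 85 by limma at pseudocounts 1 and 0.1, 126 to 176 without 1 library), 1853 for young against adult TOM+ cells (1121 by limma and 1123 without a filter, 1638 to 1868 without 1 library) and 1631 for young TOM- against adult TOM+ cells (965 and 994, 1486 to 1646). Higher and lower calls were 862 and 991 in the second comparison, but 845 and 605 by limma at a pseudocount of 0.1. The macrophage list had 5 calls by limma in place of 9 there.

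Without 1 library, log2 fold changes between the young groups ran from -0.20 to -0.05 for Adgre1, 0.85 to 2.25 for Lyz1, -0.44 to 0.078 for Lyz2 (above 0 without young TOM- replicate 2), 1.99 to 2.64 for Ly6c2 and 0.07 to 0.15 for Cd68. For young against adult TOM+ cells they ran from -0.11 to 0.047 for Adgre1 (above 0 without young TOM+ replicate 2, adult replicate 1 or adult replicate 2), -3.97 to -3.28 for Lyz1, -0.44 to -0.11 for Lyz2, 0.28 to 1.25 for Ly6c2 and -0.19 to -0.05 for Cd68. For young TOM- against adult TOM+ cells they ran from 0.03 to 0.14 for Adgre1, -5.84 to -4.46 for Lyz1, -0.30 to 0.13 for Lyz2 (above 0 without young TOM- replicate 1 or 3 or adult replicate 1 or 2), -1.98 to -1.01 for Ly6c2 and -0.29 to -0.15 for Cd68, which passed without adult replicate 3 (adjusted p 0.0224 by edgeR). The difference in the Lyz1 share by RSEM TPM was -5.52 and -5.86 percentage points against adults, and the Ly6c2 share between the young groups ran from -41.6 to 1.01 points, above 0 without young TOM+ replicate 1. Depth limits Ly6c2, where 1 to 10 reads a library leave severalfold differences undetectable.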
